A study of Mus musculus with 8 samples.

Results

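The macrophage line RAW264, called RAW below, was compared with the colon tumour line CT26, each grown alone. The comparison rests on 4 of the 8 arrays of the study, with 2 arrays per line, and its difference is always RAW alone minus CT26 alone. All probe sets with 1 gene symbol were used and for each of the 18193 genes the probe set brightest on average across the 8 arrays was kept. Of these, 13196 were bright enough to be tested.

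Both lines are established mouse lines, and RAW cells were kept in transwell inserts (0.5 ml) while CT26 cells grew in wells (1.5 ml). The other 4 arrays hold the same lines after a transwell co-culture, where molecules in the medium pass between the lines and the cells do not touch. Inserts were joined with wells 8 hours after seeding. The experiment was performed on 2 occasions. Replicates 1 and 2 of each group were read as experiment 1 and experiment 2, which the labels do not state. Each line is a single transformed line, and 2 cultures of it do not stand for macrophages or colon tumours of different animals. RAW cells were lysed on the insert whereas CT26 cells were first detached with trypsin, and all RAW arrays had the first harvest and all CT26 arrays the second. Harvest and vessel therefore cannot be told apart from the line in any value below. In RNA of whole cultures, more RNA per cell and a larger share of cells that hold it cannot be told apart.

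Macrophages are phagocytes of the blood-forming lineage. Transcription factors such as PU.1, the product of Spi1, set up their programme, and the receptor of colony-stimulating factor 1 keeps them alive. They sense microbes with Toll-like receptors, lectins and Fc receptors, engulf particles by remodelling actin, and destroy them with the NADPH oxidase and lysosomal enzymes. Tumour cells of epithelial origin are classically held together by cadherins, tight junctions and keratins. Many lines in culture instead attach to the dish through integrins, secrete collagens and other matrix proteins, and use the co-activators YAP and TAZ, which work with TEAD proteins in cells that spread on a stiff surface.

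Values are log2 expression units as deposited, so a difference of 1 is a doubling of signal. A gene was called where limma's adjusted p was under 0.05. Of the 13196 tested genes, 4563 were called, which is 34.6% of them. RAW alone was higher for 2244 genes (17.0%) and lower for 2319 genes (17.6%). Differences over 1 log2 unit were called for 1328 higher and 1327 lower genes, and differences over 5 for 144 higher and 134 lower genes. All 4563 called genes had the same sign in both experiments. The calling rule largely brings this about, since a call needs a difference that is large against the spread between replicates. The median fold of a called gene was 2.24. The 95% interval of the difference lay within 1 log2 unit of 0 for 7972 genes, or 60.4% of those tested. Adding the experiment to the fit as a replicate block raised the count to 6978 (52.9%) when both lines shared 1 block term, and to 7735 (58.6%) when each line had its own. Both sets held all 4563.

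**Figure D1:**
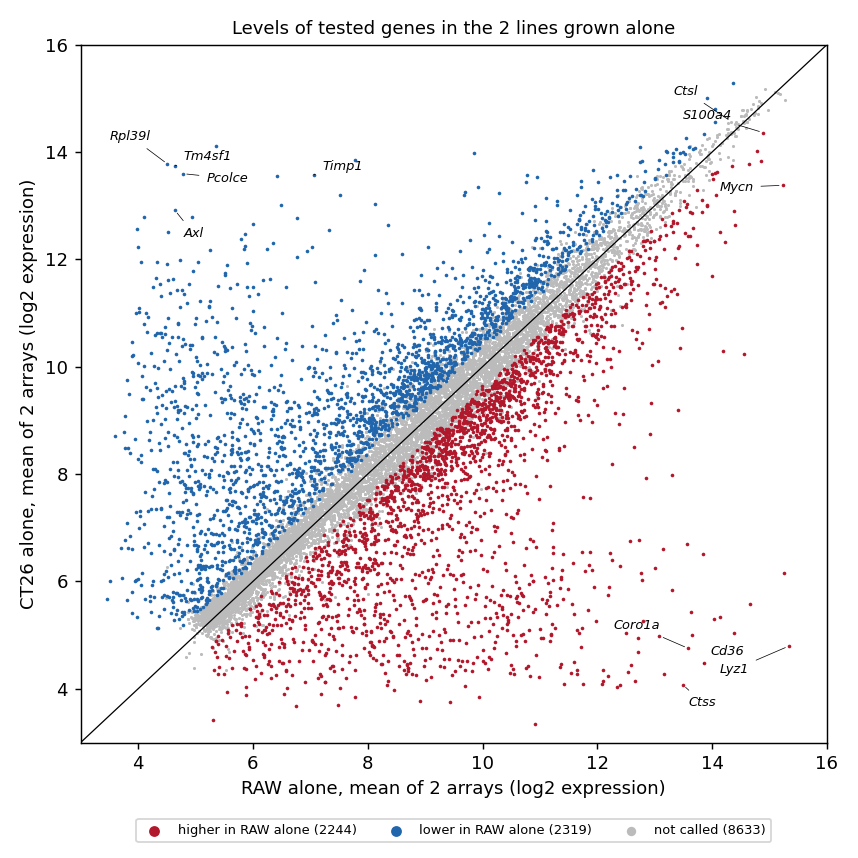
Mean level of each of the 13196 tested genes in RAW alone (x axis) and CT26 alone (y axis), each the mean of 2 arrays in log2 units, with the line of equal level. Red points are the 2244 genes higher in RAW alone, blue points the 2319 lower genes and grey points the 8633 genes not called. Genes such as Lyz1 and Ctss sit near the bottom right corner, and Rpl39l and Tm4sf1 near the top left.

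Some genes were seen in 1 line only. The floor for a measurable signal was the 40th percentile of each array, 5.21 to 5.28 log2 units. Of the 18193 genes, 336 lay above it in both RAW alone arrays and in neither CT26 alone array, and 406 the other way round. Among the called genes, 288 of the higher and 347 of the lower genes were of this kind. Their differences hold values under the floor, where RMA compresses the signal, so the size of each is not well measured. Both lines were above the floor for 3739 called genes, 1866 higher and 1873 lower.

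The labels were checked against markers of each cell type. All 12 macrophage markers were higher in RAW alone, and all 12 were above the floor there. Cd68, a lysosomal glycoprotein of macrophages, had 13.51 and 13.75 in RAW alone, against 5.34 and 5.52 in CT26 alone. CT26 is labelled as epithelial, yet only 6 of 11 epithelial markers were above the floor in both CT26 alone arrays. Krt18 and Krt20, which encode keratins, and Tjp1, a tight junction scaffold, were the 3 called as lower in RAW alone. Cdh1, the epithelial cadherin, was under the floor with 3.60 and 3.87 in RAW alone and 3.72 and 3.85 in CT26 alone. Epcam, an epithelial adhesion molecule, had 6.88 and 6.88 in RAW alone and 6.92 and 6.82 in CT26 alone, a difference of 0.01 ± 0.14 (SE) that was not called. Of 12 mesenchymal markers, 10 were tested, 8 of them lower in RAW alone and 1, Acta2, higher by 0.45 ± 0.12. That Acta2 call ended without CT26 alone replicate 1 or 2 (adjusted p 0.113 and 0.13), without RAW alone replicate 2 (0.35, adjusted p 0.139) and in a fit of only the 4 arrays grown alone (adjusted p 0.0703). Vim, the intermediate filament vimentin, had 14.37 and 14.67 in RAW alone and 14.70 and 14.88 in CT26 alone and was not called (adjusted p 0.305, against 0.0627 with the shared block and 0.0292 with the block per line). Defining markers of T, B and natural killer cells and of endothelium gave 0 called genes in limma among 6 and 5 tested, with 0 in either list at an unadjusted p under 0.05 as well. Of the 12 in each list with a probe set, 6 and 5 were nevertheless above the floor in both arrays of each line. So were 8 of the 12 macrophage markers in CT26 alone. A level above the floor does not by itself show that a marker is expressed.

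The largest differences in favour of RAW belonged to genes of phagocytes. Lyz1, a lysozyme, had 15.35 and 15.32 in RAW alone, against 4.56 and 5.03 in CT26 alone. Its difference of 10.54 ± 0.22 was the largest of the 2244, though Lyz1 and Lyz2 are near-identical copies whose probe sets may share signal. Ctss, a cathepsin of antigen-processing cells, had 13.51 and 13.47 in RAW alone and 4.06 and 4.09 in CT26 alone, a difference of 9.42 ± 0.19. The next places were held by Cd36, a scavenger receptor (9.38 ± 0.16), Lpl, a lipoprotein lipase (9.35 ± 0.20), Lyz2 (9.10 ± 0.18) and Csf1r (9.08 ± 0.17). Srgn, the proteoglycan of secretory granules, differed by 8.88 ± 0.19. For each of these genes the 4 arrays fell into 2 far separate pairs by line.

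The gene lists were chosen with earlier results of these data known, so their counts are descriptions, not tests. Transcription factors of blood cells were the first group. Of 14 members with a probe set, all were tested, 9 were higher in RAW alone and 1 was lower, with a median difference of 3.13 against -0.047 over all tested genes. Spi1 had 11.45 and 12.27 in RAW alone and 6.39 and 6.21 in CT26 alone, a difference of 5.56 ± 0.36 (adjusted p 2.98e-05). Tfec, a relative of MITF in macrophages, was higher by 5.19 ± 0.23, Fli1, an ETS factor, by 5.18 ± 0.21, and Ikzf1, the lymphoid and myeloid factor Ikaros, by 4.94 ± 0.21. Klf4, a factor of both monocytes and epithelia, went the other way with 8.67 and 9.14 in RAW alone and 11.15 and 11.70 in CT26 alone (-2.52 ± 0.30). Maf, a factor of mature macrophages, was not called, with a 95% interval of -0.19 to 0.52.

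PU.1 is known to bind purine-rich sites with the core GAGGAA. The promoters of 3 receptor genes that were far higher in RAW alone are shown because each holds that core. Clec5a is a lectin that signals through Tyrobp, Tlr13 senses bacterial ribosomal RNA, and Ptprc is the leukocyte phosphatase CD45. The letters run 5′ to 3′ on the gene's strand and end just before the annotated start in RefSeq's GRCm38.p6, with the core, or its reverse complement TTCCTC, in capitals. Clec5a lies at chr6:40585806-40585945 on the minus strand, Tlr13 at chrX:106143155-106143274 on the plus strand, and Ptprc at chr1:138175306-138175485 on the minus strand.
Clec5a: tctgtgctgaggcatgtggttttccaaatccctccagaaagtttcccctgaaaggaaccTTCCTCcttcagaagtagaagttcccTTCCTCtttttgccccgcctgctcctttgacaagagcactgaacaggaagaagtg
Tlr13: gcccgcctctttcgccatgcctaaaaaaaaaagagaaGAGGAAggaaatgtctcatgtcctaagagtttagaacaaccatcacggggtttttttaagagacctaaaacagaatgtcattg
Ptprc: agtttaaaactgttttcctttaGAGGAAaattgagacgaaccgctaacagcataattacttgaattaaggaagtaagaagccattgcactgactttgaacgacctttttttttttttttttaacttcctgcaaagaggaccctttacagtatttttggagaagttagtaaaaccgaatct

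Clec5a held 2 matches, at -81 and -55 from the start, Tlr13 held 1 at -83 and Ptprc 1 at -158. The table gives Ptprc 2 windows, of which the first is shown and the second held 0 matches. Searched on both strands over 250 upstream bases, GAGGAA was present in 26.6% of the 1845 promoters of genes higher in RAW alone and in 28.3% of the 1081 promoters of genes higher by over 1 log2 unit. It was present in 21.5% of the 6915 promoters of genes not called and in 23.1% of all 27025 promoters. A GAGGAA match can overlap a match to GGAATG, a core described further on, by the letters GGAA. A match is a description of the letters, not a bound site. The genes lower in RAW alone were left out because only 79.4% of them had a promoter in the table.

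Immune receptors and the proteins that carry their signals were higher almost throughout. Among 20 adaptors and kinases of immunoreceptors, 19 were higher in RAW alone and 0 lower, with a median of 4.59. The remaining member, Pik3cd (-0.36 ± 0.12), was not called, but was called lower with either block. Its other probe sets differed by 0.10 to 3.28. With the mean of all probe sets of each gene, 20 were higher and 0 lower. Tyrobp, the membrane adaptor DAP12, had 14.12 and 14.16 in RAW alone and 4.98 and 5.71 in CT26 alone, a difference of 8.79 ± 0.24. Fcer1g, the shared gamma chain of Fc receptors, was higher by 6.76 ± 0.15, Ptprc by 8.31 ± 0.25 and Pik3ap1, an adaptor of phosphoinositide 3-kinase, by 6.59 ± 0.19. With the mean of all probe sets of the gene, the Ptprc difference was 5.16. All 12 Fc receptors, complement receptors and leukocyte integrins were higher, with a median of 5.30. Their largest members were Itga4, an integrin chain (6.54 ± 0.18, or 4.24 with the mean of all probe sets), the adhesion ligand Icam1 (6.19 ± 0.17), Itgb2, the shared beta chain of leukocyte integrins (5.94 ± 0.22), and C3ar1, the receptor of complement C3a (5.74 ± 0.19).

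Scavenger, lectin and engulfment receptors went both ways. Of 20 members, 18 were tested, with 12 higher and 4 lower in RAW alone and a median of 3.18. The largest was Cd36, given above, and 3 lectins that sense microbes or dead cells came next. Clec4e, the lectin Mincle, had 12.53 and 12.25 in RAW alone and 4.14 and 4.01 in CT26 alone (8.32 ± 0.19). Clec4d, its partner lectin, differed by 8.73 ± 0.22 and Clec5a by 8.52 ± 0.14. Axl, a receptor tyrosine kinase for the engulfment of dying cells, was among the lower ones and had 4.43 and 4.85 in RAW alone and 12.60 and 13.23 in CT26 alone (-8.27 ± 0.31, or -4.21 with the mean of all probe sets). Mertk, its relative, was lower by 1.11 ± 0.23 and Gpnmb, a lysosomal and surface glycoprotein, fell by 2.02 ± 0.23 relative to CT26 alone. The fourth lower member was Mrc1, the mannose receptor, a lectin, at -1.06 with adjusted p 0.0142. Its call ended without CT26 alone replicate 1, RAW alone replicate 1 or RAW alone replicate 2 (adjusted p 0.0841, 0.052 and 0.0673). Timd4, a phosphatidylserine receptor of tissue macrophages, was under the floor in all 4 arrays.

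Toll-like receptors and their partners were higher for 16 of 18 tested members and lower for 0, with a median of 2.15. Tlr2, the receptor of bacterial lipopeptides, had 12.84 and 12.76 in RAW alone and 5.13 and 5.40 in CT26 alone (7.54 ± 0.14). Ly86, a secreted partner of the Toll-like protein CD180, was higher by 8.02 ± 0.29, Tlr13 by 5.35 ± 0.13 and Tlr7, a sensor of single-stranded RNA, by 5.23 ± 0.14. For Tlr7 the mean of all probe sets gave 3.24. Tlr9, a sensor of DNA, had 7.27 and 6.93 in RAW alone against 7.13 and 7.14 in CT26 alone, with an interval of -0.47 to 0.40. Nod1, a cytosolic sensor, was not called either, and Tlr5, the flagellin receptor, was under the floor in all 4 arrays.

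The killing machinery was also higher. Of 6 NADPH oxidase members, 5 were higher in RAW alone. Cybb, the catalytic subunit, had 12.59 and 12.57 in RAW alone and 4.20 and 4.67 in CT26 alone, a difference of 8.15 ± 0.18. The cytosolic subunits Ncf4 and Ncf1 were higher by 6.43 ± 0.16 and 5.60 ± 0.32. Rac2, the blood-cell form of the GTPase that switches the oxidase on, was higher by 5.70 ± 0.33 (3.28 with the mean of all probe sets). Rac1, the widely used form, had 13.04 and 12.99 in RAW alone against 13.49 and 13.49 in CT26 alone (-0.48 ± 0.11), a call that ended without CT26 alone replicate 1 or 2, at adjusted p 0.0701 and 0.0705, and without RAW alone replicate 2, at 0.0593. Lysosomal genes were higher for 18 of 29 tested members and lower for 0, with a median of 1.84. With the shared block 22 were higher and 1 lower, and with the block per line 22 and 2. Ctsc, the cathepsin that activates granule proteases, had 12.56 and 12.51 in RAW alone and 4.43 and 4.21 in CT26 alone (8.21 ± 0.13, or 4.12 with the mean of all probe sets). Ctsl, another cathepsin, was bright in both lines with 14.35 and 14.31 in RAW alone and 14.56 and 14.57 in CT26 alone, and was not called (-0.24 ± 0.11, adjusted p 0.138, against 0.0573 with the shared block and 0.0478 with the block per line).

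Actin regulators of blood cells were higher for 17 of 20 members and lower for 0, with a median of 4.92. The lowest difference of the list, -2.01, was not called. In a fit of only the 4 arrays grown alone, 16 were higher and 1 lower. With either block 18 were higher and 2 lower, and 1 was lower without RAW alone replicate 1 or either RAW co-culture array. Coro1a, the coronin of phagosomes, had 13.37 and 13.79 in RAW alone and 4.54 and 4.98 in CT26 alone (8.82 ± 0.27). Lcp1, the actin bundler L-plastin, was higher by 8.63 ± 0.17, Fermt3, the kindlin of blood cells, by 8.09 ± 0.14, and Fyb, an adaptor at the actin cortex, by 6.05 ± 0.29.

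**Figure D2:**
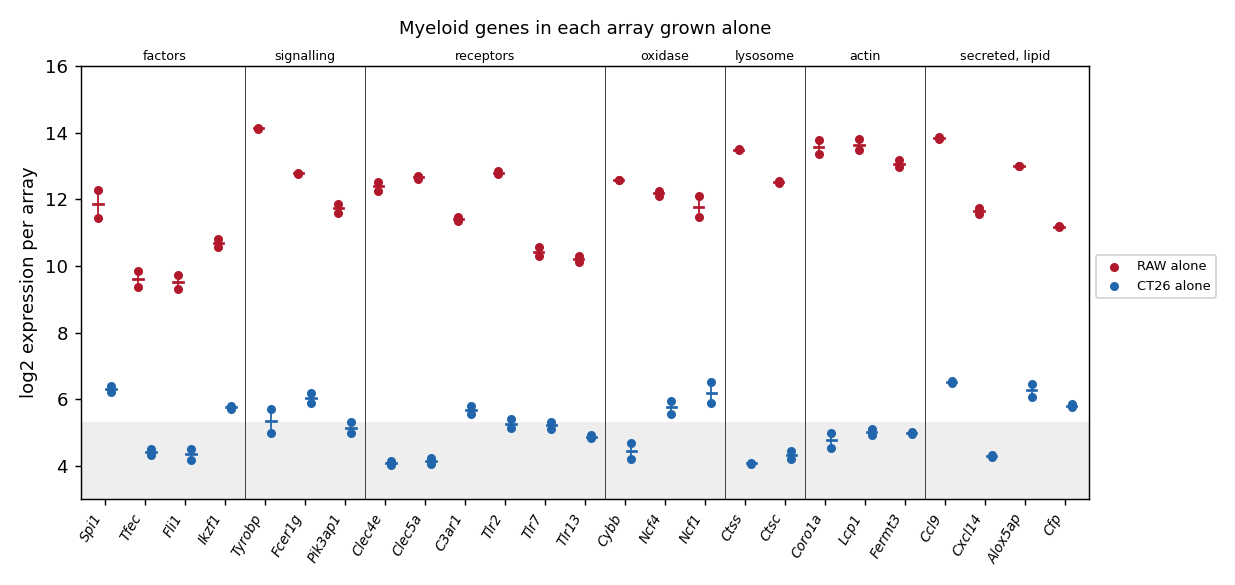
Log2 expression in each array grown alone for 25 genes of the macrophage programme, RAW alone (red) left of CT26 alone (blue), where points are arrays and the short bar is the mean of 2. The grey band is below the floor of 5.28. The 25 genes were picked from members called higher in RAW alone, and members called the other way are not drawn. That every RAW alone point lies above every CT26 alone point of the same gene follows from this choice. Of the 50 CT26 alone points, 28 are inside the band. Lines join the arrays of a group.

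Secreted signals were mixed. Of 31 chemokines and inflammatory cytokines, 26 were tested, with 13 higher and 5 lower in RAW alone and a median of 0.97, or 0.15 over all 31. Chemokines led the higher ones. Ccl9 had 13.81 and 13.88 in RAW alone and 6.54 and 6.47 in CT26 alone (7.34 ± 0.11), and Cxcl14 was higher by 7.37 ± 0.16. Ccl3 and Ccl2, which draw in monocytes and other leukocytes, were higher by 6.94 ± 0.50 and 5.48 ± 0.66. Ccl2 differed between its RAW alone arrays, with 10.75 in experiment 1 and 11.94 in experiment 2. Il1b, interleukin-1 beta, had 6.39 and 6.35 in RAW alone and 6.33 and 6.44 in CT26 alone and was not called, with an interval of -0.31 to 0.28. Il1a was under the floor in all 4 arrays.

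The 2 ligands of the receptor Csf1r were lower in the line that carries the receptor. Csf1, colony-stimulating factor 1, had 6.10 and 5.69 in RAW alone and 11.14 and 11.82 in CT26 alone, a difference of -5.59 ± 0.29 (adjusted p 1.02e-05). Il34, the other ligand, had 4.57 and 4.69 in RAW alone and 6.24 and 6.04 in CT26 alone (-1.52 ± 0.15). Lif, a cytokine of the interleukin-6 family, was lower by 1.88 ± 0.31, and by 1.02 with the mean of all probe sets. Receptors of chemokines and cytokines numbered 11 higher and 3 lower among 20 tested, with a median of 0.92, or 0.48 over all 24 with a probe set. Csf2ra, a chain of the receptor of granulocyte-macrophage colony-stimulating factor, was higher by 6.59 ± 0.43 (3.84 with the mean of all probe sets). Cx3cr1, the fractalkine receptor, was higher by 4.70 ± 0.37, and Tnfrsf11a, the receptor RANK, by 4.76 ± 0.42. Among the lower ones, Ackr3, a scavenging chemokine receptor, differed by -3.20 ± 0.17 and Il1r1, the interleukin-1 receptor, by -2.65 ± 0.18, or by -1.34 with the mean of all probe sets. The other lower member was Ccr1, a chemokine receptor, at -1.4, or -0.77 with the mean of all probe sets.

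Antigen presentation was present only in part. Called were 45.5% of the tested class II and costimulation genes, against 34.6% of all tested genes. Of 11 tested class II and costimulation genes, 5 were higher in RAW alone and 0 lower, with a median of 0.23, or 0.03 over all 13 with a probe set. Only 3 higher ones were left with the 60th percentile filter. Cd74, the invariant chain, had 11.09 and 11.63 in RAW alone and 6.08 and 6.10 in CT26 alone (5.27 ± 0.20). H2-DMa, a class II peptide loader, was higher by 1.86 ± 0.12 and by 1.18 with the mean of all probe sets. Ciita, the master regulator of class II genes, had 5.30 and 5.09 in RAW alone and 5.32 and 5.12 in CT26 alone, near the floor, and was not called. H2-Aa, a class II chain, was under the floor in all 4 arrays, and the costimulator Cd86 also was. Complement components were 3 higher and 3 lower among 7 tested, with a median of -0.45, or 0.06 over all 13 with a probe set. Cfp, the complement activator properdin, had 11.19 and 11.16 in RAW alone and 5.76 and 5.84 in CT26 alone (5.38 ± 0.13, or 2.80 with the mean of all probe sets). C1qa and C1qb, chains of C1q that many tissue macrophages make, were under the floor in all 4 arrays.

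Lipid and eicosanoid genes went both ways. Lipid uptake and export genes were 3 higher and 4 lower among 11 tested, with a median of 0.18. Fabp5, a fatty acid binding protein, had 12.18 and 12.00 in RAW alone and 3.96 and 4.21 in CT26 alone (8.01 ± 0.18). Scd1, a desaturase, had 5.36 and 6.65 in RAW alone and 11.75 and 11.21 in CT26 alone (-5.47 ± 0.42). Abca1, a cholesterol exporter, was lower by 2.93 ± 0.35, and by 1.94 with the mean of all probe sets. Apoe, the apolipoprotein, lay close to the floor in both lines, with a difference of 0.00 ± 0.13 and no call. Prostaglandin and leukotriene enzymes were 5 higher and 4 lower among 12 tested, with a median of 0.02, or -0.25 over all 13 with a probe set. Leukotriene genes were split. Alox5ap, the activator of 5-lipoxygenase, had 13.02 and 13.01 in RAW alone and 6.47 and 6.06 in CT26 alone (6.75 ± 0.16), and Ltc4s, leukotriene C4 synthase, was higher by 2.62 ± 0.14. Lta4h, leukotriene A4 hydrolase, went the other way with 10.71 and 10.72 in RAW alone and 11.43 and 11.52 in CT26 alone (-0.76 ± 0.13, or -0.44 with the mean of all probe sets). Ptges, a prostaglandin E synthase, had 7.61 and 7.32 in RAW alone and 10.61 and 11.13 in CT26 alone (-3.40 ± 0.21). Ptgis, prostacyclin synthase, was lower by 2.10 ± 0.16 and Pla2g7, the enzyme that degrades platelet-activating factor, by 6.92 ± 0.11. The small medians of the lipid, eicosanoid and complement lists changed sign under some settings.

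Iron handling genes were higher for 6 of 9 tested members and lower for 0 (1 with the block per line), with a median of 1.84, or 0.74 over all 12 with a probe set. Slc11a1, the phagosomal metal transporter, had 11.14 and 11.85 in RAW alone and 5.75 and 5.96 in CT26 alone (5.64 ± 0.32). Hfe was higher by 3.64 ± 0.14, or 1.90 with the mean of all probe sets, and Cd163, the haemoglobin receptor of tissue macrophages, was under the floor in all 4 arrays. Genes of the osteoclast programme, which RAW cells can enter when given RANK ligand, were higher for 6 of 10 tested members and lower for 1 (0 without CT26 alone replicate 2 or RAW alone replicate 1), with a median of 2.20, or 0.63 over all 13 with a probe set. Besides Tnfrsf11a, they included Dcstamp, a cell fusion protein, at 8.80 and 8.77 in RAW alone and 4.81 and 4.69 in CT26 alone (4.03 ± 0.19), and Nfatc1, the leading factor of osteoclasts (2.96 ± 0.23, or 1.90 with the mean of all probe sets). Ctsk, the collagen-degrading cathepsin, was higher by 2.59 ± 0.24. Oscar and Calcr, markers of mature osteoclasts, were under the floor in all 4 arrays and Mmp9 was not called (0.01 ± 0.12).

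The 12 largest differences in favour of CT26 belonged to genes of several kinds. Rpl39l, a paralogue of a ribosomal protein, had 4.47 and 4.55 in RAW alone and 13.79 and 13.77 in CT26 alone, a difference of -9.26 ± 0.13. Tm4sf1, a tetraspan membrane protein, had 4.54 and 4.75 in RAW alone and 13.78 and 13.71 in CT26 alone (-9.10 ± 0.13). Pcolce, which promotes the trimming of procollagen, had 5.17 and 4.41 in RAW alone and 13.52 and 13.68 in CT26 alone (-8.81 ± 0.26). These were followed by Baiap2l1, a membrane-bending adaptor (-8.75 ± 0.18), the sialomucin Cd34 (-8.67 ± 0.17), the thrombin receptor F2r (-8.59 ± 0.18), Axl (-8.27 ± 0.31) and Cavin2, a coat protein of caveolae (-8.25 ± 0.18). Nefm, a neurofilament chain, Esm1, a secreted proteoglycan, the guidance cue Slit2 and Cpe, a peptide-processing enzyme, completed the 12, at -7.98 to -7.61. With the mean of all probe sets, Tm4sf1 differed by -5.84, Axl by -4.21, Slit2 by -4.96 and Cpe by -3.96. For each of the 11 genes other than Baiap2l1, both RAW alone arrays were below the floor.

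Transcription factors and adhesion genes of mesenchymal cells were on the CT26 side. Of 16 tested members of the list, 9 were lower in RAW alone and 2 higher, with a median of -1.64, or -0.34 over all 19 with a probe set. Of the 2 higher ones, 0 were left without CT26 alone replicate 2 and 1 without RAW alone replicate 2. Twist2 had 5.34 and 5.41 in RAW alone and 10.74 and 10.95 in CT26 alone (-5.47 ± 0.32). Snai2, a repressor of Cdh1, differed by -5.43 ± 0.20 and Twist1 by -5.05 ± 0.38. Cdh2, the neural cadherin, had 3.91 and 4.03 in RAW alone and 11.004 and 10.996 in CT26 alone (-7.03 ± 0.16). S100a4, a calcium-binding protein often used as a mesenchymal marker, was bright in both lines with 14.89 and 14.88 in RAW alone and 14.35 and 14.38 in CT26 alone. Its difference of 0.52 ± 0.11 was called, and the call ended without either CT26 alone array, at adjusted p 0.0631 and 0.0529. Cd44, the hyaluronan receptor, had 12.79 and 12.87 in RAW alone and 12.62 and 12.63 in CT26 alone and was not called.

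The YAP and TEAD list was lower in RAW alone for 16 of its 19 members and higher for 1, with a median of -4.17. Wwtr1, which encodes TAZ, had 4.73 and 4.88 in RAW alone and 11.45 and 11.27 in CT26 alone (-6.55 ± 0.15, adjusted p 3.55e-07). Crim1 and Ccn2, known targets in other cells, were lower by 6.22 ± 0.32 and 6.14 ± 0.35. Ccn2 had 4.19 and 4.75 in RAW alone, against 10.20 and 11.04 in CT26 alone. Nt5e, an ectoenzyme, was the higher member (0.86 ± 0.23), and its call ended without CT26 alone replicate 2 (0.69, adjusted p 0.142) or RAW alone replicate 2 (0.61, adjusted p 0.12), while the mean of all probe sets gave 1.53. Amotl1, an angiomotin, was not called, with an interval of -0.62 to 0.23.

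TEAD proteins are known to bind sites with the core GGAATG. The upstream sequences of Wwtr1 and of Cald1, the actin-binding protein caldesmon, are shown because both genes were on the CT26 side and both hold that core, in capitals. They are written as above, with Wwtr1 at chr3:57575911-57576070 on the minus strand and Cald1 at chr6:34598324-34598503 on the plus strand.
Wwtr1: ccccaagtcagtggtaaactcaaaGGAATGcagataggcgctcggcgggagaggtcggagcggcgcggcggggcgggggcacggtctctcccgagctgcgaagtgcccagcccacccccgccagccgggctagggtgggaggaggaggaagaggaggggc
Cald1: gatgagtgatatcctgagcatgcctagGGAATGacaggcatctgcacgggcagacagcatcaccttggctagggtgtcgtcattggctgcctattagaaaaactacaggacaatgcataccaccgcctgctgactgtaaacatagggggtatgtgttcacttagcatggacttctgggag

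The match lay at -136 in Wwtr1 and at -153 in Cald1. Both genes have 2 windows in the table and the first is shown. The second held 1 match for Wwtr1 and 0 for Cald1. On either strand, GGAATG was in 10.1% of promoters of genes higher in RAW alone, 10.3% of those not called and 12.6% of all promoters. The core is thus common and its presence in these 2 genes is a description. Genes lower in RAW alone, the side of these 2 genes, were left out because only 79.4% of them had a promoter window. The shares given therefore do not show how frequent the core is on the CT26 side. The Wwtr1 window also holds the letters GAGGAA near its end.

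Extracellular matrix genes stood on the CT26 side as well. Collagens were lower in RAW alone for 10 of 14 tested members and higher for 1, with a median of -1.95. Col4a1, a basement membrane chain, had 4.91 and 4.62 in RAW alone and 11.04 and 11.81 in CT26 alone (-6.66 ± 0.35). Col3a1, a fibrillar chain, differed by -5.92 ± 0.33, and by -3.55 with the mean of all probe sets. Col4a5, another basement membrane chain, was the higher one with 10.87 and 10.79 in RAW alone and 9.85 and 9.85 in CT26 alone (0.98 ± 0.15). Enzymes and chaperones that mature collagen were lower for 8 of 16 tested members and higher for 1 (0 without CT26 alone replicate 1 or RAW alone replicate 2, and 2 without RAW alone replicate 1), with a median of -1.50, or -0.70 over all 18 with a probe set. Serpinh1, the collagen chaperone, had 5.87 and 5.83 in RAW alone and 11.94 and 12.45 in CT26 alone (-6.34 ± 0.22). Plod2, a lysyl hydroxylase, was lower by 5.91 ± 0.44. Matrix glycoproteins were lower for 16 of 24 tested members and higher for 1, or 4 with either block, with a median of -1.36, or -0.38 over all 32 with a probe set. Fn1, fibronectin, had 6.77 and 6.75 in RAW alone and 12.78 and 12.76 in CT26 alone (-6.01 ± 0.10), and Lamb1, a laminin chain, was lower by 6.15 ± 0.23. Nid2, a basement membrane linker, was the higher one (2.78 ± 0.13). Eln, elastin, was not called, with an interval of -0.22 to 0.31.

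Proteases that cut matrix were split between the lines. Of 18 tested proteases and inhibitors, 9 were lower and 2 higher in RAW alone, with a median of -0.64. Timp1, a metalloprotease inhibitor, had 7.124 and 6.997 in RAW alone and 13.48 and 13.66 in CT26 alone (-6.51 ± 0.13). Mmp14, a membrane-bound collagenase, had 5.48 and 4.76 in RAW alone and 10.29 and 10.78 in CT26 alone (-5.41 ± 0.28), and the inhibitor Timp2 was lower by 4.91 ± 0.39. Adam8, a surface protease of leukocytes, had 12.89 and 13.72 in RAW alone and 6.11 and 5.58 in CT26 alone (7.46 ± 0.42). Plau, urokinase, was higher by 2.87 ± 0.52, with 7.44 and 8.99 in RAW alone and 5.18 and 5.52 in CT26 alone. Mmp3 and Mmp8 were under the floor in all 4 arrays.

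Epithelial genes were on the CT26 side only in part. The share called was 42.9% for junction and polarity genes, 42.9% for keratins and 44.4% for intestinal identity genes, against 34.6% of all tested genes. Junction and polarity genes were 5 lower and 4 higher among 21 tested, with a median of -0.07, and 2 of the higher calls ended without CT26 alone replicate 2. Tjp1 had 4.68 and 4.53 in RAW alone and 11.62 and 11.67 in CT26 alone (-7.04 ± 0.13), and Cldn6, a tight junction claudin, differed by -5.86 ± 0.39. Gja1, the gap junction protein connexin 43, was lower by 5.24 ± 0.47. The higher ones included Nectin3, an adhesion molecule, at 11.42 and 11.41 in RAW alone and 4.32 and 3.86 in CT26 alone (7.33 ± 0.20, or 3.71 with the mean of all probe sets). Pkp2, a desmosomal plaque protein, was higher by 4.47 ± 0.49, or by 2.69 with the mean of all probe sets. Keratins were 3 lower and 0 higher among 7 tested. Krt20 had 5.07 and 4.70 in RAW alone and 11.53 and 11.55 in CT26 alone (-6.66 ± 0.15) and Krt18 differed by -5.18 ± 0.25. Krt8, the usual partner of Krt18, had 5.84 and 5.75 in RAW alone and 5.99 and 5.87 in CT26 alone, with an interval of -0.45 to 0.19. Of 22 genes of intestinal identity, 9 were tested, 4 were lower in RAW alone and 0 higher, with a median of -0.19, or -0.12 over all 22. Leaving out any 1 of the 4 arrays grown alone left 1 lower call, and leaving out any 1 co-culture array left 2. Sox9, a factor of crypt cells, was the one over 1 log2 unit (-1.19 ± 0.15, or -0.78 with the mean of all probe sets). Vil1, the villin of microvilli, and Lgr5, a stem cell marker, were under the floor in all 4 arrays.

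Genes of attachment and contraction followed. Caveola genes were lower in RAW alone for 7 of 8 members and higher for 0, with a median of -3.02. Cavin1, the main caveolar coat protein, had 4.42 and 4.70 in RAW alone and 11.34 and 11.41 in CT26 alone (-6.81 ± 0.16, or -3.31 with the mean of all probe sets). Matrix-binding integrins and their partners were 8 lower and 3 higher among 20 tested, with a median of -0.41, or -0.27 over all 24 with a probe set, and 11 lower and 6 higher with the block per line. Fermt2, the kindlin of adherent cells, had 4.02 and 4.83 in RAW alone and 10.40 and 10.72 in CT26 alone (-6.14 ± 0.26, or -3.68 with the mean of all probe sets), opposite to Fermt3. Parva, a partner of integrin-linked kinase, was lower by 5.73 ± 0.33 and the laminin receptor chain Itga6 by 3.86 ± 0.11. Itgav, a chain of vitronectin receptors, was higher with 13.18 and 13.19 in RAW alone and 11.71 and 11.23 in CT26 alone (1.71 ± 0.21, or 1.13 with the mean of all probe sets). Contractile genes were 10 lower and 1 higher among 22 tested, with a median of -1.01, or -0.65 over all 27 with a probe set, and with either block 18 were lower and 2 higher. Cnn3, a calponin, differed by -6.35 ± 0.28 and Cald1, with 6.30 and 6.39 in RAW alone and 12.40 and 12.21 in CT26 alone, by -5.96 ± 0.13.

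**Figure D3:**
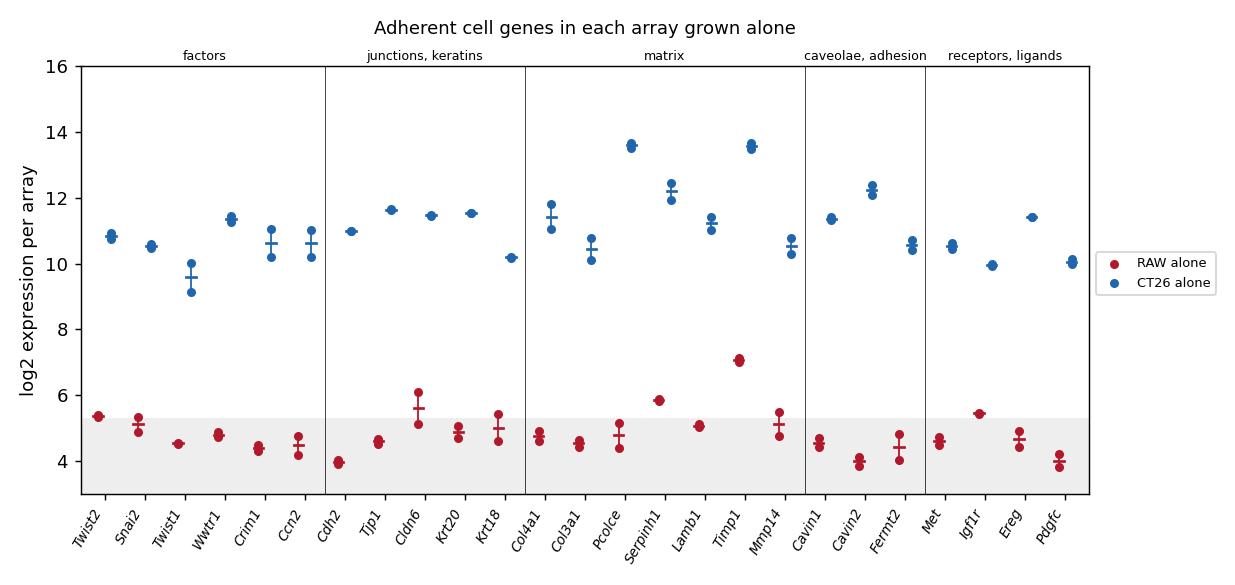
Log2 expression in each array grown alone for 25 genes of the adherent cell programme, RAW alone (red) left of CT26 alone (blue), where points are arrays and the short bar is the mean of 2. The grey band is below the floor of 5.28. The 25 genes were picked from members called lower in RAW alone, and members called the other way are not drawn. That every RAW alone point lies below every CT26 alone point of the same gene follows from this choice. Of the 50 RAW alone points, 38 are inside the band. Lines join the arrays of a group.

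Growth factors and their receptors ran in opposite directions for some pairs. Receptor tyrosine kinases were 13 lower and 1 higher among 25 tested, with a median of -0.82, or -0.22 over all 29 with a probe set. Met, the receptor of hepatocyte growth factor, had 4.73 and 4.47 in RAW alone and 10.64 and 10.46 in CT26 alone (-5.95 ± 0.14). Ddr2, a collagen receptor, was lower by 4.56 ± 0.15. Erbb3, an ErbB family member, was higher by 2.98 ± 0.29, or by 1.51 with the mean of all probe sets, and Egfr was not called (-0.22 ± 0.11). Growth factors were 12 lower and 5 higher among 26 tested, with a median of -1.25, or -0.24 over all 32 with a probe set. The higher ones numbered 3 without CT26 alone replicate 1, CT26 alone replicate 2 or RAW alone replicate 2. Ereg and Hbegf, ligands of ErbB receptors, were lower by 6.76 ± 0.19 and 5.81 ± 0.33. Ereg had 4.90 and 4.44 in RAW alone, against 11.43 and 11.43 in CT26 alone. Igf1, insulin-like growth factor 1, had 12.36 and 12.15 in RAW alone and 6.63 and 6.17 in CT26 alone (5.86 ± 0.24). Igf1r, its receptor, had 5.44 and 5.46 in RAW alone and 9.921 and 10.002 in CT26 alone (-4.51 ± 0.15, or -2.81 with the mean of all probe sets). Fgf13, an intracellular FGF relative, was higher by 3.91 ± 0.10, or by 2.23 with the mean of all probe sets, and Vegfc, a lymphatic growth factor, by 3.51 ± 0.20. Pdgfc and Bmp2 were lower by 6.06 ± 0.18 and 5.09 ± 0.20.

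Members of the TGF-beta list were 8 lower and 4 higher among 24, with a median of -0.11, and 11 lower and 8 higher with the block per line. Proteins that hold or present the ligand were lower, with Ltbp1 at -6.28 ± 0.16 and Tgfbr3, betaglycan, at -5.86 ± 0.15. With the mean of all probe sets these were -2.60 and -3.49. The signalling receptor Tgfbr2 was higher, with 11.47 and 11.90 in RAW alone and 10.49 and 10.55 in CT26 alone (1.16 ± 0.21), and so was Smad6, an inhibitor of the pathway (2.45 ± 0.33). Smad2, which carries the signal, had 9.84 and 9.74 in RAW alone and 9.73 and 9.72 in CT26 alone and was not called. Wnt and Hedgehog genes were 10 lower and 1 higher among 23 tested, with a median of -0.30, or -0.15 over all 31 with a probe set. Called were 47.8% of these and 50.0% of the TGF-beta list, against 34.6% of all tested genes. The higher call, Fzd8 at 0.56, ended when any 1 array other than RAW alone replicate 1 was left out. Smo, the Hedgehog transducer, had 5.63 and 6.23 in RAW alone and 10.77 and 11.86 in CT26 alone (-5.39 ± 0.51). Fzd6, a Wnt receptor, was lower by 4.68 ± 0.17, or by 2.34 with the mean of all probe sets, and Dkk2, a secreted Wnt modulator, by 4.36 ± 0.20.

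Lists of machinery that all cells use had medians near 0. Of 68 listed ribosomal protein genes, only 39 had a probe set with 1 symbol, and 38 were tested. Among these 38, 0 were higher and 2 lower in RAW alone, with a median of -0.09. Rpl27 had 14.36 and 14.35 in RAW alone and 14.36 and 14.37 in CT26 alone. Respiratory chain genes were 6 higher and 0 lower among 45, with a median of 0.02, and 42 of the 45 had an interval within 1 log2 unit of 0. DNA replication genes were 5 higher and 1 lower among 42 and mitosis genes 5 higher and 4 lower among 33, with medians of 0.07 and 0.01. Mki67, the proliferation antigen, had 12.96 and 12.84 in RAW alone and 11.08 and 10.89 in CT26 alone (1.91 ± 0.12), the largest difference of the mitosis list. Ccnb2, a mitotic cyclin, was higher by 1.20 ± 0.11, while Anln, a cytokinesis scaffold, was lower by 0.93 ± 0.16. Rrm1, a ribonucleotide reductase subunit, was not called (0.02 ± 0.11). Proteasome genes were 3 higher and 1 lower among 35, with a median of 0.04. The 2 over 1 log2 unit were Psmb9 and Psmb8, subunits of the immunoproteasome, at 2.24 ± 0.17 and 2.02 ± 0.20, and Psmb8 differed by 1.26 with the mean of all probe sets. Psmb5, the constitutive counterpart of Psmb8, was not called (0.14 ± 0.11). With the shared block, the higher and lower genes numbered 0 and 4 for ribosomal proteins, 9 and 7 for the respiratory chain, 10 and 7 for replication, 11 and 9 for mitosis and 8 and 6 for the proteasome. With the block per line they numbered 1 and 5, 10 and 9, 13 and 8, 12 and 11, and 8 and 7 in that order. Of the 33 mitosis genes 27.3% were called, against 34.6% of all tested genes. Leaving out arrays mostly lowered these counts. Without CT26 alone replicate 2, the higher and lower genes numbered 1 and 1 for ribosomal proteins, 1 and 0 for the respiratory chain, 1 and 0 for replication, 3 and 2 for mitosis and 2 and 0 for the proteasome. Without CT26 alone replicate 1 they numbered 0 and 1, 3 and 0, 2 and 1, 3 and 2, and 2 and 0 in that order. Without RAW alone replicate 1 they numbered 0 and 2, 1 and 0, 2 and 1, 3 and 4, and 2 and 1. Without RAW alone replicate 2 they numbered 0 and 1, 3 and 0, 8 and 0, 6 and 2, and 2 and 0. The proteasome counts were 2 and 0 without any 1 co-culture array, and 4 ribosomal genes were lower with the mean of all probe sets.

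Metabolic and stress genes were mixed. Glycolysis and hypoxia genes were 9 higher and 3 lower among 28 tested, with a median of 0.06. Aldoc, an aldolase, had 11.06 and 11.22 in RAW alone and 6.01 and 5.92 in CT26 alone (5.18 ± 0.17), and the glucose transporter Slc2a3 was higher by 5.03 ± 0.32. Ldha, lactate dehydrogenase, was bright in both lines and not called (-0.14 ± 0.12). Cholesterol synthesis genes were 4 lower and 1 higher among 20, with a median of -0.31, and 10 lower and 1 higher with either block and 8 lower and 1 higher with the mean of all probe sets. The higher call ended without CT26 alone replicate 2. Cyp51, a demethylase of the pathway, was lower by 1.73 ± 0.20. Chaperones of the endoplasmic reticulum were 11 higher and 1 lower among 22, with a median of 0.42. Sdf2l1, a cochaperone, had 10.97 and 11.11 in RAW alone and 8.47 and 8.16 in CT26 alone (2.73 ± 0.18), and Xbp1, the factor that induces such genes, was higher by 1.70 ± 0.17. Atf4, the stress factor, was the lower one (-0.95 ± 0.18). Antioxidant genes were 7 higher and 6 lower among 24 tested, with a median of 0.09. Catalase, Cat, was higher by 2.73 ± 0.27 and Gpx1, a glutathione peroxidase, by 1.76 ± 0.13. Glutathione transferases led the lower ones, with Gstp1 at 9.86 and 9.84 in RAW alone and 13.92 and 14.04 in CT26 alone (-4.13 ± 0.16), and Gstm2 lower by 4.06 ± 0.18.

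Interferon-stimulated genes were more often lower in RAW alone. Of 34 tested, 11 were lower and 3 higher, with a median of -0.58. The share called was 41.2%, against 34.6% of all tested genes. With the shared block 15 were lower and 3 higher, and with the block per line 20 lower and 7 higher. Lower and higher genes numbered 5 and 3 without CT26 alone replicate 1, 6 and 1 without RAW alone replicate 1 and 7 and 1 without RAW alone replicate 2, and 1 was higher without CT26 alone replicate 2. Ifitm1, a membrane protein that blocks viral entry, had 5.42 and 5.36 in RAW alone and 11.83 and 11.18 in CT26 alone (-6.11 ± 0.22). Oasl2, a synthetase-like antiviral protein, differed by -3.44 ± 0.55, Isg20, an exonuclease, by -2.81 ± 0.29 and Ifit1, which binds foreign RNA, by -2.67 ± 0.48. Samhd1, which depletes nucleotides, was higher by 0.69 ± 0.12, but by 0.31 and uncalled with the mean of all probe sets (adjusted p 0.0874). Ifitm2 was not called, with 12.00 and 12.25 in RAW alone and 12.09 and 12.08 in CT26 alone, and Mx1 was under the floor in all 4 arrays.

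Immediate-early genes were 5 higher and 6 lower among 25, with a median of -0.38, against 7 and 10 with the shared block and 8 and 13 with the block per line. They were 3 and 2 without CT26 alone replicate 2 and 5 and 2 without RAW alone replicate 1. Fos had 12.52 and 13.17 in RAW alone and 7.33 and 8.51 in CT26 alone (4.93 ± 0.50), and Atf3 and Dusp1 were higher by 3.37 ± 0.26 and 2.07 ± 0.13. Egr1 had 8.26 and 8.94 in RAW alone and 12.01 and 12.19 in CT26 alone (-3.50 ± 0.52). Immediate-early genes are known for fast responses to stimuli. Tumour driver and p53 genes were 4 higher and 7 lower among 27 tested, with a median of -0.14, against 6 and 12 with the shared block and 9 and 13 with the block per line. Pmaip1, the cell death gene Noxa, had 10.03 and 9.37 in RAW alone and 4.23 and 3.88 in CT26 alone (5.65 ± 0.26). The kept probe set of Mycn was very bright in both lines, with 15.18 and 15.28 in RAW alone and 13.30 and 13.46 in CT26 alone (1.85 ± 0.13). The mean of all its probe sets differed by 4.79, so the brightness in both lines holds for the kept probe set only. Ccnd2, a cyclin of the first gap phase, had 4.60 and 7.12 in RAW alone and 12.37 and 12.58 in CT26 alone (-6.62 ± 0.85), with the 2 RAW alone arrays far apart. Cdkn2a and Cdkn2b, which encode cell cycle inhibitors, were under the floor in all 4 arrays. Of 4 sex-chromosome transcripts, the Y-linked Eif2s3y, Kdm5d and Uty were higher, Kdm5d with 7.90 and 7.67 in RAW alone and 3.61 and 4.08 in CT26 alone (3.94 ± 0.18, or 1.95 with the mean of all probe sets).

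Among genes bright in both lines, above the 90th percentile in all 4 arrays, 577 of 2005 were called, against 4563 of all 13196 tested genes (34.6%). The largest in favour of RAW alone were Tuba4a, a tubulin (2.76 ± 0.16), BC005537 (2.29 ± 0.14), the cathepsin Ctsd (2.21 ± 0.38) and Creg1, a lysosomal glycoprotein (2.07 ± 0.15). In favour of CT26 alone were Anxa3, an annexin (-2.80 ± 0.22), the desaturase Scd2 (-2.58 ± 0.23), Bex3 (-2.18 ± 0.16) and Med10, a Mediator subunit (-2.08 ± 0.13). Tuba4a had 13.60 and 13.36 in RAW alone, against 10.87 and 10.56 in CT26 alone. Anxa3 had 10.51 and 11.04 in RAW alone, against 13.57 and 13.58 in CT26 alone. These differences do not rest on values near the floor.

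**Figure D4:**
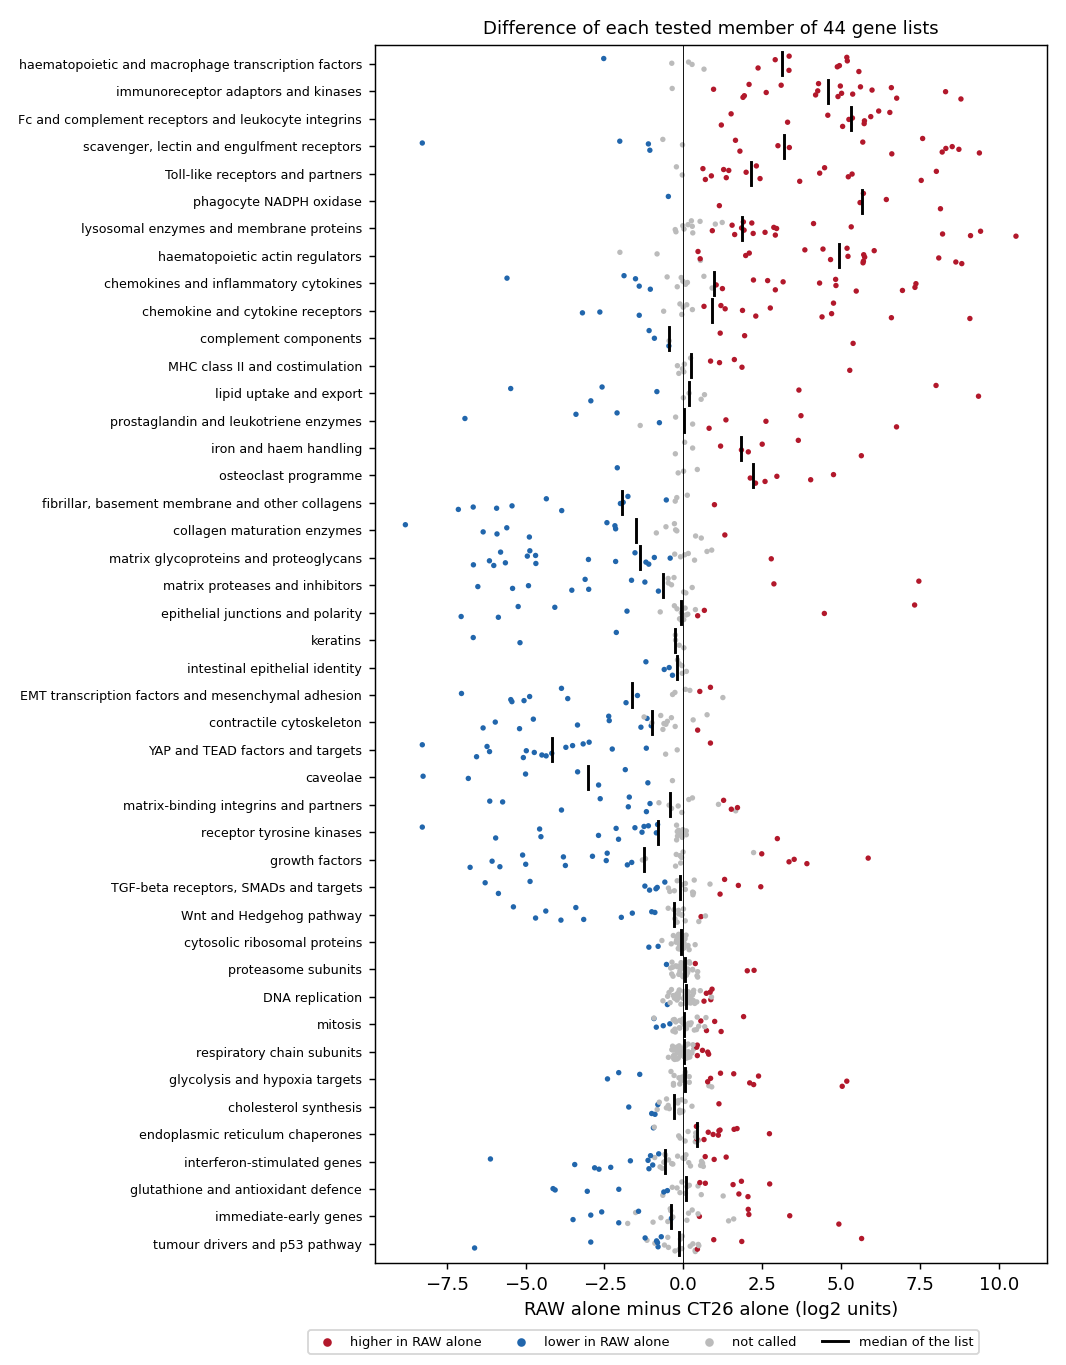
Difference RAW alone minus CT26 alone (x axis, log2 units) of every tested member of 44 gene lists, 1 list per row, with the median of the list as a black bar. Red members were higher in RAW alone, blue members lower and grey members not called; the medians of the immune receptor, oxidase and actin lists lie right of 0, those of the YAP and TEAD, caveola and matrix lists left of it, and those of the ribosomal, proteasome, replication and respiratory chain lists close to 0, with single members on the other side in several lists.

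The same contrast was read in the 4 co-culture arrays, which are separate samples of the same lines, with the shared fit pooling the spread over all 8 arrays. There 4587 genes were called, 34.8% of those tested. Of the 4563 genes called in cells grown alone, 4000 were called with the same sign in co-culture, 2000 higher and 2000 lower, which is 87.7% of the calls in cells grown alone and 87.2% of the calls in co-culture. A further 3 were called with the opposite sign. Rtp4, an interferon-inducible protein, differed by -1.68 in cells grown alone and by 2.17 in co-culture. Oasl1, an interferon-stimulated synthetase-like protein, differed by -0.97 and 0.97, and Fbxw17, an F-box protein, by -0.41 and 0.54. The change itself was not called for any of the 3, with adjusted p of 0.454, 0.362 and 0.426. Over all genes the line difference changed with co-culture for 1 gene, Ifi44l, or 0.00758% of those tested, and 328 genes had an unadjusted p under 0.05 in limma. That call ended without CT26 alone replicate 1 or CT26 co-culture replicate 1, when 0 genes were called. The replicate block gave 11 such genes in its shared form and 98 in its per-line form.

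**Figure D5:**
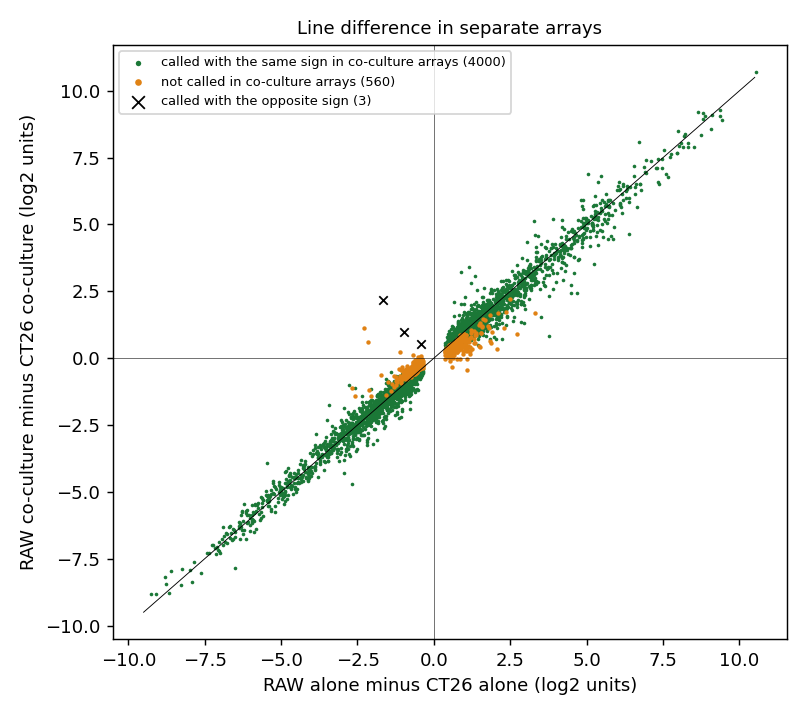
Difference RAW minus CT26 in cells grown alone (x axis) and in co-culture arrays (y axis), in log2 units, for the 4563 genes called in cells grown alone, with the line of equal difference. Green points are the 4000 genes called with the same sign in both, orange points the 560 not called in co-culture, and crosses the 3 called with the opposite sign.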

How the data were processed

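Total RNA (5 µg per sample) was measured on 8 single-colour Affymetrix arrays. The authors deposited log2 expression values. Per the submitters' processing notes these came from RMA and affy, for which no version or setting is given in the sources used here. Array medians ran from 5.88 to 5.94, so a change in total RNA per cell would not be seen. With 2 arrays per group, their number limits precision.

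Of 45037 probe sets other than controls, 34945 had 1 symbol in the platform annotation, 932 several and 9160 none. Testing required a signal over the 40th percentile of its own array in both replicates of some group. Levels of different genes are not compared, since probe sets differ in brightness.

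The model held the means of 4 groups and used all 8 arrays (R 4.3.3; limma 3.58.1), which left 4 residual degrees of freedom. Two-sided p-values were adjusted over 13196 genes by the Benjamini-Hochberg method. Errors are standard errors (SE) of the fit and intervals are 95%. The script was tested on simulated data. Whether the arrays came from separate cultures is not stated beyond the repeat of the experiment, so p-values measure the spread between these samples.

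Replicate numbers mark the experiment in the labels. For every pair of groups, arrays of the same experiment deviated together from their means (correlation 0.484 to 0.765), so replicate numbers were read as pairs. No block entered the reported fit, so the genes not called there include genes that were called with a block.

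Promoters (250 bases before the start) came from RefSeq, assembly GRCm38.p6, and 10602 of the tested genes matched by identifier or symbol. The first window listed for a gene was used. A set of genes with under 80% matched was left out. Both strands were searched for GAGGAA and GGAATG, and for 5 other cores that are not reported.

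The genes compared and the 49 lists were chosen with earlier results of these data known. Named genes are the 12 largest called differences each way, up to 4 called members each way and up to 2 uncalled or unmeasurable members per list, the 4 largest each way among genes bright in both lines and the marker genes. Rtp4, Oasl1 and Fbxw17 were chosen after their values were seen. Alternatives were other filters, probe set summaries, scalings and variance models, blocks, a fold threshold and leaving out each array.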

Additional observations from a re-analysis of the deposited data

Results flagged for a closer look

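Ifi44l, an interferon-inducible gene, stood out because its line difference changed with co-culture in a test of that change. Co-cultured RAW exceeded co-cultured CT26 by 4.32 log2 units, against 0.22 between the lines grown alone. The change was 4.10 ± 0.21 (limma, adjusted p 0.00446). Its levels in co-culture were 8.84 and 9.03 in RAW and 4.54 and 4.67 in CT26. In cells grown alone they were 5.02 and 4.75 in RAW and 4.77 and 4.57 in CT26, all under the floor. Both RAW co-culture arrays were above all 6 other arrays. The call ended without CT26 alone replicate 1 or CT26 co-culture replicate 1.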

How the results depend on the processing

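The count of 4563 genes became 6978 with the replicate block shared by the lines, 7735 with the replicate block per line and 2655 when a difference over 1 log2 unit was also required. Under the other settings it stayed within 1.5 times, with 3138 to 4485 genes when 1 array was left out. The lowest count came without CT26 alone replicate 2. In co-culture arrays the 4587 genes became 7652 with the block per line and 2654 with the fold threshold, and 3342 to 4464 without 1 array. The 1 gene whose line difference changed became 11 with the shared block, 98 with the block per line, 2 with cyclic loess, 4 with trend and robust variance, and 0 to 2 without 1 array. It was 0 without CT26 alone replicate 1 or CT26 co-culture replicate 1. Of 266 called named genes, 217 kept their call under every alternative run for single genes. With the mean of all probe sets Pik3cd turned to 1.22, Lamp2 to 0.78 and Ccr2 to 0.86. List medians turned for complement components (0.06 without a filter, 0.36 with a 60th percentile filter), prostaglandin and leukotriene enzymes (-0.25 with either filter choice, -0.10 without RAW alone replicate 2), lipid uptake and export (-0.03 without RAW alone replicate 2), respiratory chain subunits (-0.09 without RAW alone replicate 1), and, with the 60th percentile filter, endothelial (-0.06), neutrophil and mast cell (3.63) and erythroid and megakaryocyte markers (0.80). Over all left-out arrays the medians ran from -0.03 to 0.40 for lipid genes, from -0.10 to 0.14 for prostaglandin genes and from -0.09 to 0.02 for the respiratory chain. The cause of these shifts was not tested, apart from the fewer genes or arrays that a filter or a left-out array leaves. The floor of each array limits what can be said of genes dim in 1 line.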

Other observations

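Markers of other blood lineages were measurable only in part. Under the floor in all 4 arrays grown alone were 6 of 12 neutrophil and mast cell markers and 3 of 7 erythroid and megakaryocyte markers. Of 12 neutrophil and mast cell markers, 4 were tested and 1 was higher. S100a8, a calcium-binding protein of neutrophils and monocytes, had 8.88 and 8.54 in RAW alone, against 5.15 and 5.01 in CT26 alone (3.63 ± 0.18), whereas S100a9, its usual partner, was under the floor in all 4 arrays. Of 7 erythroid and megakaryocyte markers, 4 were tested. Pf4, a platelet chemokine, was higher with 7.99 and 8.67 in RAW alone and 5.95 and 6.32 in CT26 alone (2.20 ± 0.37). Itga2b, the platelet integrin chain, was lower with 7.30 and 7.22 in RAW alone and 7.79 and 7.93 in CT26 alone (-0.60), a call that ended without CT26 alone replicate 2 or RAW alone replicate 2, at adjusted p 0.0804 and 0.057.

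Promoters of genes higher in RAW alone by over 1 log2 unit held a median of 13 CpG pairs in 250 bases, against 15 for genes not called, and 26.0% against 18.2% of them held at most 5. These promoters come from 1081 and 6915 genes, and the difference was not tested.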
